A study of Mus musculus and Rattus norvegicus with 14 samples.

Results

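The endothelial identity genes are 10 genes that mark the cells lining blood vessels and the heart's chambers. They are Vwf, Pecam1, Cdh5, Cldn5, Egfl7, Eng, Emcn, Tie1, Erg and Esam. They were chosen by gene name and found as 10 of 54532 genes in the mouse table, and each of the 10 was among the 13000 genes tested. Messenger RNA was sequenced from mouse hearts in 4 groups of 3 libraries, labelled Model, LQ-40, SQ-3 and Sham. The study compared LQ-40 with SQ-3, compounds known here by code name, for their effects on fibrosis of the heart muscle. The labels give no strain, age, sex, dose, treatment time or model procedure, and do not say that LQ-40 and SQ-3 hearts underwent that procedure. Nor do they tie each library to its own animal, so the spread behind the p-values is that of these samples and could be technical.

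Endothelial cells hold together through junctions built from cadherins, claudins and immunoglobulin-like adhesion proteins. They take signals through receptors, some of them found almost only on this lineage. ETS-family transcription factors, Erg among them, keep the lineage's genes active, in part through the short core GGAA. Endothelial cells also store von Willebrand factor in rod-shaped granules, the Weibel-Palade bodies, and release it when stimulated. In the heart, most of these cells line the dense capillary bed between cardiomyocytes. Arteries, veins, lymphatics and the endocardium each have an endothelium with markers of its own.

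All 10 genes were well detected. Levels are given as scaled FPKM, that is reads adjusted for gene length and library size and then for composition between libraries. Means over the 12 libraries were highest for Cdh5 (88.8 scaled FPKM), Eng (82.6) and Pecam1 (52.7). Tie1 (34.1), Cldn5 (30.8), Esam (29.8) and Egfl7 (27.0) formed the middle, and Erg (14.7), Emcn (14.4) and Vwf (14.3) had the lowest levels. The smallest number of reads behind any of these values was 321, for Cldn5 in a single library. Spread over the 12 libraries set Vwf apart, with a coefficient of variation of 43.6% against 29.0% for Cldn5 and 8.80% for Pecam1, the steadiest of the 10.

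The mouse libraries held 13085370 to 16698987 reads, of which 10.8% to 23.6% came from mitochondrial genes. On the first principal component of all tested genes (53.4% of the variance), Model libraries lay at 26.3 to 36.2 and Sham libraries at -52.5 to -43.7. The LQ-40 libraries were widely spread, with library 1 at -20.6 and libraries 2 and 3 at 16 and 34.3. Markers of other heart cells differed between groups as well. Their counts stand against 20.9% of all tested genes that rose and 18% that fell between Model and Sham hearts. The 8 cardiomyocyte markers summed to 8099 to 9727 scaled FPKM in Model hearts and 16129 to 17764 in Sham hearts, and 7 of the 8 fell. The 7 fibroblast markers summed to 2913 to 3122 in Model hearts and 445 to 563 in Sham hearts, and all 7 rose. The 8 macrophage and leukocyte markers summed to 760 to 1126 in Model hearts and 360 to 547 in Sham hearts, and 6 rose. Over the 20 alternatives tried, 4 to 8 cardiomyocyte markers fell. In those alternatives 6 to 7 fibroblast markers and 4 to 8 macrophage and leukocyte markers rose. Of 5 mesothelial and epicardial markers 3 rose, but only 1 by limma-voom and 1 to 4 over the 20 alternatives tried. These 5 summed to 15.3 to 83.0 in Model hearts and 2.79 to 15.8 in Sham hearts, with a median log2 change of 2.19. Of 7 tested mural cell markers 2 rose, a share near that of all genes, with sums of 409 to 443 in Model hearts and 390 to 436 in Sham hearts. Of 5 tested erythroid markers none passed (limma, 2 at an unadjusted p under 0.05, and 0 by limma-voom), with sums of 693 to 1344 in Model hearts and 1420 to 2146 in Sham hearts and a median log2 change of -0.78. Such p-values were common between Model and Sham hearts, where an unadjusted limma p of 0.0213 ranked 5203 of the 13000 genes tested.

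The sum of the 10 endothelial genes did not separate the groups. It was 369, 413 and 396 scaled FPKM in Model hearts 1 to 3 and 326, 358 and 431 in Sham hearts 1 to 3. In LQ-40 hearts it was 435, 371 and 406, and in SQ-3 hearts 389, 360 and 417. In pieces of whole heart, fewer cells of a type and less RNA per cell cannot be told apart. What part the change in RNA of these other cells has in the values that follow was not tested.

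**Figure D1:**
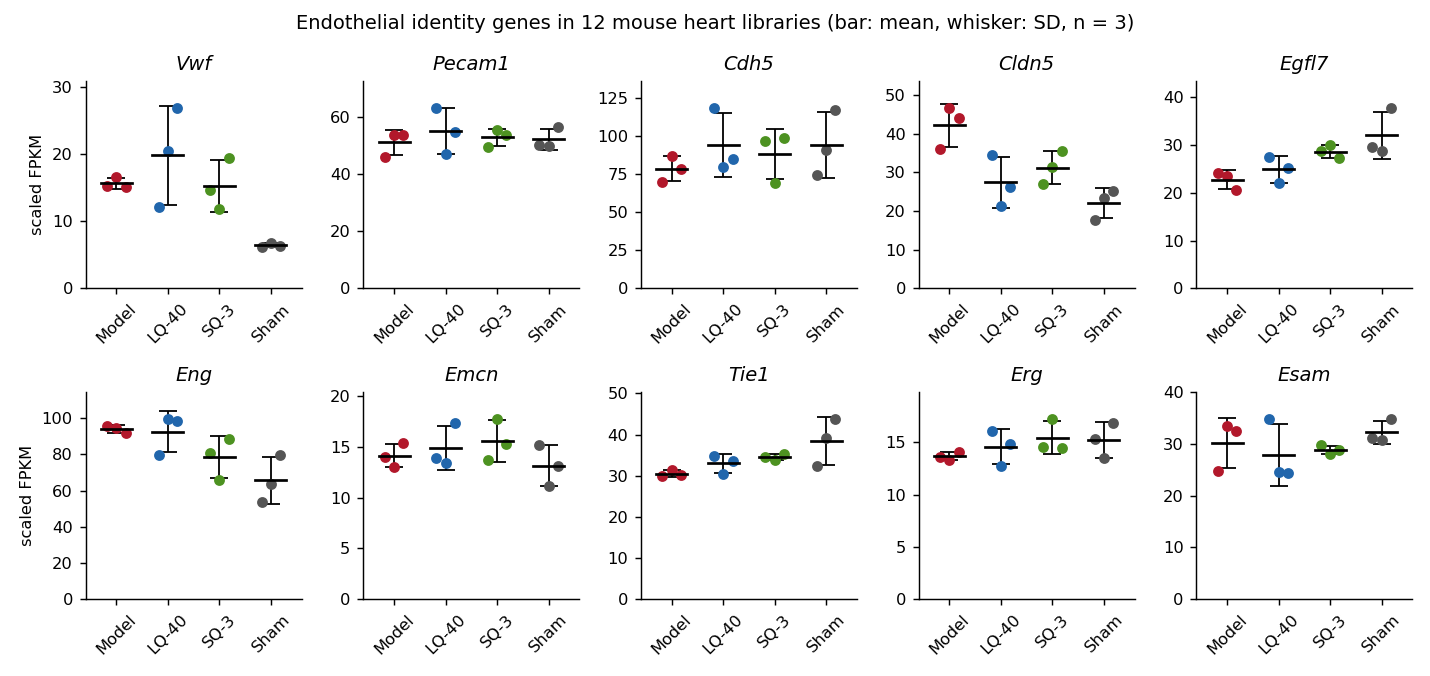
Scaled FPKM of the 10 endothelial identity genes in each of the 12 mouse heart libraries, with Model, LQ-40, SQ-3 and Sham from left to right; points are libraries, bars are means of 3 and whiskers are SD. Vwf lies at 15.1 to 16.6 in Model hearts and 6.19 to 6.75 in Sham hearts, while Pecam1 has nearly equal levels in all 4 groups.

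Between Model and Sham hearts the 10 genes did not move as a block. Vwf, Cldn5 and Eng rose, Egfl7 fell, and the other 6 did not pass the test. So 4 of the 10 were called, against 38.9% of all tested genes (20.9% higher and 18% lower). Libraries of both groups did not overlap for 5 of the 10, against 55.5% of all tested genes. The median log2 change was -0.07 for the 10 genes and 0.025 (log2) for all tested genes. The share of the endothelial genes that changed was thus near that of the whole transcriptome.

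The secreted products changed in opposite directions.
Vwf encodes von Willebrand factor, which tethers platelets to damaged vessel walls and carries clotting factor VIII. It lies on chromosome 6 (125546774 to 125686679, plus strand, mm10). Vwf had 15.2, 16.6 and 15.1 scaled FPKM in Model hearts, against 6.19, 6.75 and 6.37 in Sham hearts. Every Model library was above every Sham library, and libraries of the same group lay close together. The difference was 2.24-fold (log2 change 1.16, SE 0.24, 95% interval 0.63 to 1.69, limma adjusted p = 0.00492), and it stayed called in all 20 alternatives tried. Every fold given here is taken on the log2(scaled FPKM + 1) scale. Such folds differ from ratios of the printed levels, most of all for low genes.

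Egfl7 encodes a secreted protein with EGF-like domains that endothelial cells deposit around growing vessels. It lies on chromosome 2 (26580014 to 26593120, plus strand, mm10). Egfl7 had 24.1, 23.5 and 20.5 scaled FPKM in Model hearts, against 29.6, 28.8 and 37.7 in Sham hearts. All 3 Model libraries were below all 3 Sham libraries, and Sham 3 was well above the others. The difference was 1.38-fold lower (log2 change -0.47, SE 0.13, 95% interval -0.75 to -0.19, limma adjusted p = 0.0156). Without Sham 3 the adjusted p was 0.0515, and without Model 3 it was 0.063. Egfl7 shares 64 bases with Agpat2 on the opposite strand (13.4 scaled FPKM on average), and the strand setting of the counting is not given in the sources used here.

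Egfl7 is also the host gene of miR-126, a microRNA abundant in endothelial cells. Its mature strand is shown because it lies inside the one gene of the 10 that fell, at chr2:26591402-26591423 on the plus strand (GRCm38.p6, RefSeq), with the seed in capitals (bases 2 to 8).
mmu-miR-126a-3p: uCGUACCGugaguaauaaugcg
The position is intronic in all 7 protein-coding Egfl7 transcripts that span it, and a transcript with a retained intron holds it in an exon. No library had a read assigned to Mir126a. Libraries made by poly-T capture are not built to measure small RNA, so these data give no level of the microRNA.

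Of the 4 junction genes, Cldn5 passed the test. Cldn5 encodes claudin-5, the tight-junction strand protein that seals endothelial borders. It lies on chromosome 16 (18776847 to 18778262, plus strand, mm10). Cldn5 had 36, 46.6 and 44.1 scaled FPKM in Model hearts, against 17.7, 23.4 and 25.2 in Sham hearts. The groups did not overlap, and the lowest Model library was above the highest Sham library by a wide margin. The difference was 1.88-fold (log2 change 0.91, SE 0.19, 95% interval 0.49 to 1.34, limma adjusted p = 0.00532), and it stayed called in all 20 alternatives.

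The other junction genes did not pass the test. Cdh5 encodes VE-cadherin, the adherens-junction cadherin of endothelium. Cdh5 had 70.1, 87.0 and 78.7 scaled FPKM in Model hearts, against 74.7, 90.7 and 117 in Sham hearts, and the groups overlapped (log2 change -0.24, 95% interval -0.71 to 0.23, limma adjusted p = 0.394). Pecam1 encodes CD31, an adhesion protein of endothelial borders that leukocytes and platelets also carry. Pecam1 had 45.9, 53.6 and 53.5 scaled FPKM in Model hearts, against 50.2, 49.8 and 56.3 in Sham hearts. Its log2 change was -0.03 with a 95% interval of -0.31 to 0.25 (limma adjusted p = 0.868). Esam encodes an adhesion molecule of endothelial tight junctions. Esam had 24.7, 33.4 and 32.5 scaled FPKM in Model hearts, against 31.2, 30.7 and 34.8 in Sham hearts (log2 change -0.10, 95% interval -0.44 to 0.24, limma adjusted p = 0.628).

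Of the 2 receptors, Eng passed the test and Tie1 did not. Eng encodes endoglin, a co-receptor for BMP9 and TGF-beta that is mutated in a human disease of malformed vessels. It lies on chromosome 2 (32646595 to 32682669, plus strand, mm10). Eng had 95.7, 94.7 and 91.6 scaled FPKM in Model hearts, against 53.5, 63.8 and 79.6 in Sham hearts. The Model libraries were nearly equal and the Sham libraries were spread, with no overlap. The difference was 1.44-fold (log2 change 0.53, SE 0.17, 95% interval 0.16 to 0.90, limma adjusted p = 0.0286). This call was less stable than those of Vwf and Cldn5. The adjusted p was 0.0503 without a filter on low genes, and leaving out Sham 1, Sham 2, Model 1, Model 2 or Model 3 gave 0.108, 0.0703, 0.0805, 0.0679 and 0.0629 in that order. Eng shares 61 bases with Fpgs on the opposite strand (2.67 scaled FPKM on average). Fibroblasts and macrophages also express Eng. In Model hearts 7 of 7 fibroblast and 6 of 8 macrophage and leukocyte markers rose, against 20.9% of all tested genes. The part of these cells in the rise of Eng was not tested.

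Tie1 encodes an orphan receptor tyrosine kinase that modulates the angiopoietin receptor Tek. Tie1 had 29.9, 31.5 and 30.1 scaled FPKM in Model hearts, against 32.3, 39.2 and 43.8 in Sham hearts. The groups did not overlap, yet the log2 change of -0.31 (SE 0.12, 95% interval -0.57 to -0.06) had a limma adjusted p of 0.0531. It was near the threshold of 0.05 in several alternatives. The adjusted p was 0.0323 with FPKM as deposited, 0.0407 by limma-voom on recovered reads, 0.0462 among genes averaging at least 5 FPKM, 0.0199 without Sham 1 and 0.049 without LQ-40 1.

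The transcription factor and the surface mucin did not pass the test. Erg encodes the ETS factor most closely tied to the endothelial lineage. Erg had 13.6, 13.3 and 14.1 scaled FPKM in Model hearts, against 15.3, 13.5 and 16.9 in Sham hearts (log2 change -0.14, 95% interval -0.39 to 0.12, limma adjusted p = 0.361). Emcn encodes endomucin, a sialic-acid-rich surface protein of capillaries and veins. Emcn had 14.0, 13.1 and 15.3 scaled FPKM in Model hearts, against 15.2, 11.1 and 13.1 in Sham hearts, and the groups overlapped (log2 change 0.11, 95% interval -0.21 to 0.42, limma adjusted p = 0.582).

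**Figure D2:**
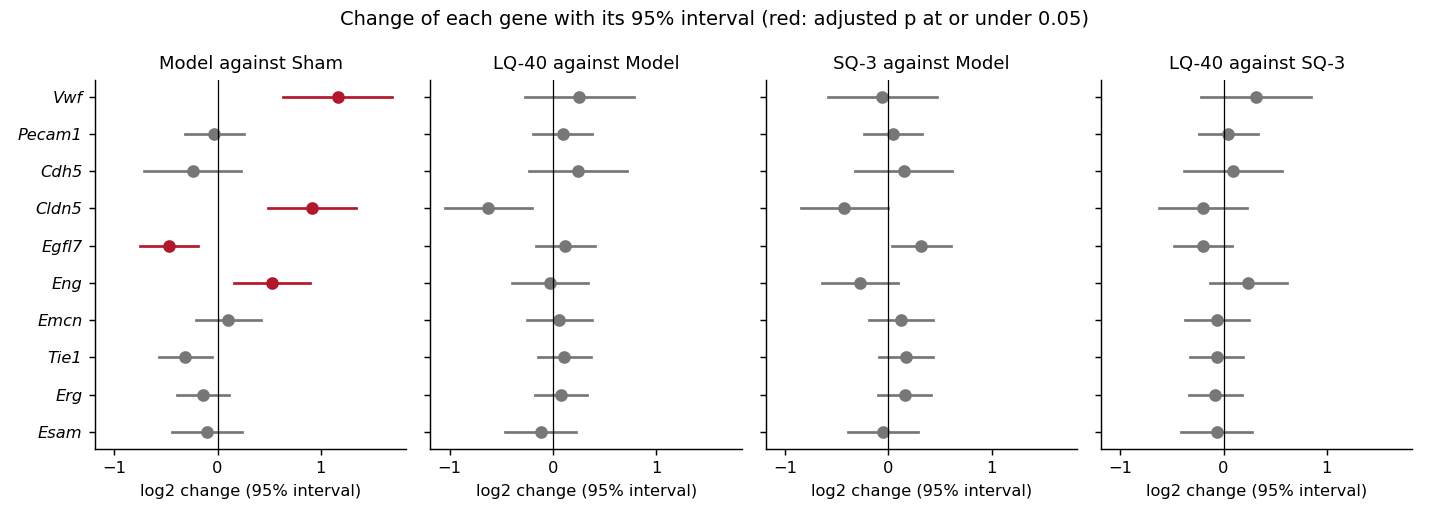
Log2 change of each of the 10 endothelial identity genes on the log2(scaled FPKM + 1) scale, with 95% intervals from limma, in panels for Model against Sham, LQ-40 against Model, SQ-3 against Model and LQ-40 against SQ-3; red marks an adjusted p at or under 0.05. Vwf, Cldn5 and Eng (1.16, 0.91 and 0.53 on the log2 scale) and Egfl7 (-0.47) are red in the first panel, and no gene is red in the other panels.

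Setting the genes against each other within a library removes any scaling between libraries. The log2 level of Vwf minus the mean log2 level of the other 9 was -1.08, -1.09 and -1.20 in Model hearts, against -2.31, -2.24 and -2.58 in Sham hearts. The ratio of Cldn5 to Pecam1 was 0.784, 0.870 and 0.825 in Model hearts, against 0.352, 0.470 and 0.447 in Sham hearts. The ratio of Egfl7 to Pecam1 was 0.525, 0.439 and 0.383 in Model hearts, against 0.590, 0.578 and 0.668 in Sham hearts. That of Eng to Pecam1 was 2.08, 1.77 and 1.71 in Model hearts, against 1.07, 1.28 and 1.41 in Sham hearts. None of these 4 measures overlapped between Model and Sham hearts, so the endothelial genes stood in other proportions to each other, whatever the scaling. They are ratios of the values already described and are not further evidence.

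**Figure D3:**
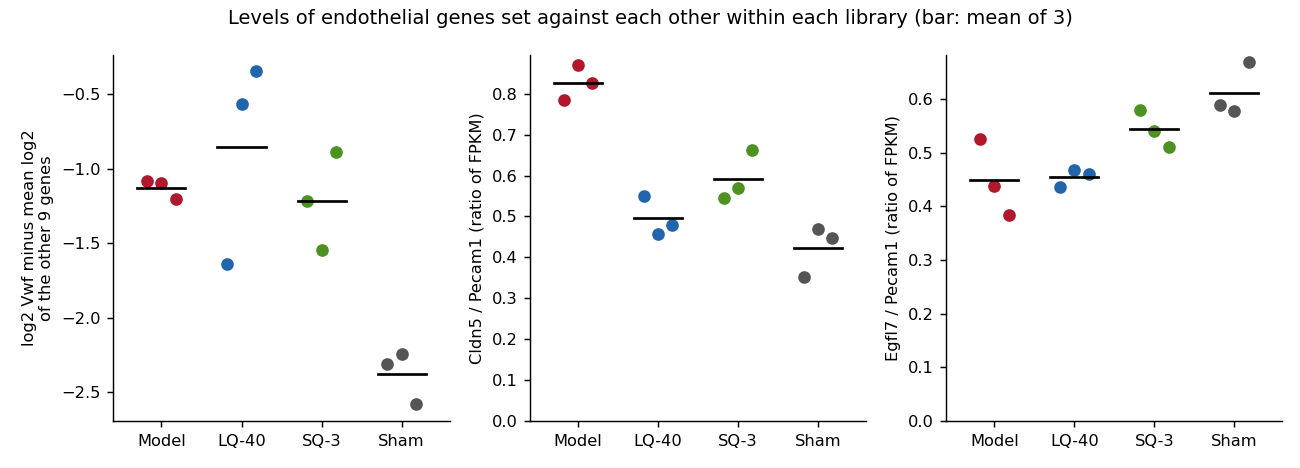
Endothelial genes set against each other within each library, for Model, LQ-40, SQ-3 and Sham hearts from left to right: the log2 level of Vwf minus the mean log2 level of the other 9 genes, and the FPKM ratios of Cldn5 and of Egfl7 to Pecam1. Points are libraries and bars are means of 3; the Cldn5 to Pecam1 ratio is 0.784 to 0.870 in Model hearts and 0.352 to 0.470 in Sham hearts.

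Sequence upstream of the start is shown for the called genes that have a RefSeq promoter entry, since the ETS core is the feature this gene class is known for. Of the 10 genes, 6 had entries (Cldn5, Egfl7, Eng, Emcn, Tie1 and Erg), with 10 windows among them. The search motif was AGGAAG on either strand, written CTTCCT where it lies on the other strand, and matches stand in capitals. This motif is longer than the GGAA core, and other GGAA letters in these sequences are left unmarked. Bases before the start only are shown, all on the plus strand of GRCm38.p6. For Egfl7 the window is the middle of its 3 starts, chr2:26583615-26583863. For Eng it is chr2:32646345-32646594 and for Cldn5 chr16:18776597-18776846.
Eng: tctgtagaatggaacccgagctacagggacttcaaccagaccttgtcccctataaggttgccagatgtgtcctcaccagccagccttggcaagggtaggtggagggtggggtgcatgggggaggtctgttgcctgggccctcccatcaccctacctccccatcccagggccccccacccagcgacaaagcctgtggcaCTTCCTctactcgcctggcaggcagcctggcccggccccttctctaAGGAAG
Egfl7: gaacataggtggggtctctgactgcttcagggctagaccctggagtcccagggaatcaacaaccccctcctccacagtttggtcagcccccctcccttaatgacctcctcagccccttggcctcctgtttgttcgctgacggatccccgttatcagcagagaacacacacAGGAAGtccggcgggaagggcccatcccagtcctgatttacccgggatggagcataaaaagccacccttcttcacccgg
Cldn5: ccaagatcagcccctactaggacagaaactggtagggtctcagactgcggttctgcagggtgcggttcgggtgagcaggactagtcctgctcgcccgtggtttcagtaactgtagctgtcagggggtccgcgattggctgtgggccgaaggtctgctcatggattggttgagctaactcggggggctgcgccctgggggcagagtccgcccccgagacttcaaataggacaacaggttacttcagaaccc
Eng, which rose, has 2 matches and Egfl7, which fell, has 1 in the window shown and 3 and 0 in the windows of its first and last starts, while the Cldn5 window has none of these letters. Over all genes, 29.5% of 32851 windows of 250 bases held the motif, against 6 of the 10 windows of the endothelial genes, some of which were shorter. Those 10 windows come from 6 genes, with several each for Egfl7 and Erg. They are not separate genes, so no excess can be read from these shares. A match here is a description of the letters and not a binding site.

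The compounds were then set against Model hearts. These 2 comparisons share the same 3 Model libraries. None of the 10 genes passed the test in LQ-40 hearts (limma, 0 of 10, against 0.669% of all tested genes), and 1 had an unadjusted p under 0.05, against 12.1% of all tested genes. None passed in SQ-3 hearts either (0 of 10, against 0.346%), again with 1 at an unadjusted p under 0.05, against 14.2%. By limma-voom on recovered reads the counts were also 0 and 0. The median log2 change of the 10 genes was 0.09 in both, against 0.007 and -0.01 (log2) for all tested genes. Libraries did not overlap for 1 of the 10 with LQ-40, against 18.1% of all tested genes, and for 5 of the 10 with SQ-3, against 26.4%.

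Cldn5 came nearest to a difference with LQ-40. It had 34.6, 21.4 and 26.2 scaled FPKM in LQ-40 hearts and 26.9, 31.4 and 35.5 in SQ-3 hearts, against 36, 46.6 and 44.1 in Model hearts. All libraries of both compounds were below all Model libraries, though by little in LQ-40 1 and SQ-3 3. The log2 change was -0.62 with LQ-40 (95% interval -1.05 to -0.20, limma adjusted p = 0.207) and -0.42 with SQ-3 (95% interval -0.85 to 0.00, adjusted p = 0.353). Egfl7 had 28.6, 29.9 and 27.3 scaled FPKM in SQ-3 hearts, against 24.1, 23.5 and 20.5 in Model hearts, with no overlap (log2 change 0.32, 95% interval 0.04 to 0.60, limma adjusted p = 0.311). In LQ-40 hearts Egfl7 had 27.4, 21.9 and 25.2, which overlapped the Model libraries (limma adjusted p = 0.746).

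Vwf, the gene with the largest change of the 10 in Model hearts, did not pass the test with either compound. It had 12.1, 20.6 and 26.9 scaled FPKM in LQ-40 hearts and 14.6, 11.8 and 19.4 in SQ-3 hearts, against 15.2, 16.6 and 15.1 in Model hearts. The compound groups were far more spread than the Model group, and LQ-40 1 was low where LQ-40 3 was the highest of all 12 libraries. The log2 change was 0.26 with LQ-40 (95% interval -0.27 to 0.79, limma adjusted p = 0.712) and -0.06 with SQ-3 (95% interval -0.59 to 0.47, adjusted p = 0.927).

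Eng had 79.6, 99.7 and 98.5 scaled FPKM in LQ-40 hearts and 80.7, 65.8 and 88.7 in SQ-3 hearts, against 95.7, 94.7 and 91.6 in Model hearts. The SQ-3 libraries were all below the Model libraries and the LQ-40 libraries lay on both sides (limma log2 change -0.27 with SQ-3, 95% interval -0.64 to 0.10; -0.03 with LQ-40, 95% interval -0.40 to 0.34). Tie1 had 34.9, 30.5 and 33.6 in LQ-40 hearts and 34.6, 33.8 and 35.2 in SQ-3 hearts, against 29.9, 31.5 and 30.1 in Model hearts. Erg had 16.1, 12.8 and 14.9 in LQ-40 hearts and 14.6, 17.3 and 14.5 in SQ-3 hearts, against 13.6, 13.3 and 14.1 in Model hearts. For both genes the SQ-3 libraries were above the Model libraries without passing the test.

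The other 4 genes overlapped between each compound and Model. Cdh5 had 118, 79.6 and 84.8 scaled FPKM in LQ-40 hearts and 96.6, 69.0 and 98.9 in SQ-3 hearts. Pecam1 had 62.9, 46.9 and 54.7 in LQ-40 hearts and 49.3, 55.3 and 53.5 in SQ-3 hearts. Emcn had 13.9, 13.4 and 17.4 in LQ-40 hearts and 13.7, 17.7 and 15.2 in SQ-3 hearts. Esam had 34.8, 24.6 and 24.3 in LQ-40 hearts and 29.7, 28.1 and 28.8 in SQ-3 hearts. In LQ-40 hearts, library 1 was the highest of the 3 for Cdh5, Pecam1, Esam, Cldn5, Egfl7, Tie1 and Erg, and the lowest for Vwf and Eng.

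LQ-40 and SQ-3 were compared directly because the study asks about compounds of similar structure. The labels give no doses or times, so whether these match is not known here. None of the 10 genes differed (limma, 0 of 10, against 0% of all tested genes, and 0 of 10 at an unadjusted p under 0.05, against 3.03%), and limma-voom also called 0. Libraries did not overlap for 0 of the 10, against 6.12% of all tested genes. The intervals are wide enough to hold moderate differences. The log2 change of LQ-40 against SQ-3 was 0.31 for Vwf (95% interval -0.22 to 0.84), 0.24 for Eng (-0.13 to 0.61), -0.20 for Cldn5 (-0.63 to 0.22) and -0.20 for Egfl7 (-0.48 to 0.08). Over the 10 genes the limits of the intervals reached from -0.63 to 0.84, so the test does not show that the compounds act alike.

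Set against Sham hearts, Vwf was the gene of the 10 that was called in both compound groups. With LQ-40, 1 of 10 rose and none fell, against 15.8% of all tested genes called and 9.83% called higher. With SQ-3, 1 of 10 rose and none fell, against 6.68% called and 4.86% called higher. Libraries did not overlap for 3 of 10 genes with each compound, against 33.2% of all tested genes with LQ-40 and 36.6% with SQ-3. These comparisons share the 3 Sham libraries with the comparison of Model and Sham. Vwf was 2.67-fold higher in LQ-40 hearts (log2 change 1.42, SE 0.24, limma adjusted p = 0.00749) and 2.15-fold higher in SQ-3 hearts (log2 change 1.11, adjusted p = 0.0262). The LQ-40 call missed the threshold when only those 2 groups were fitted (adjusted p = 0.0512). The SQ-3 call was lost without a filter (0.0737) and without Sham 1 (0.0865), Sham 2 (0.0785), Sham 3 (0.0646), SQ-3 1 (0.0651) or SQ-3 3 (0.0809).

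Cldn5, called in Model hearts, did not pass against Sham with LQ-40 (log2 change 0.29, limma adjusted p = 0.304) or SQ-3 (log2 change 0.49, 95% interval 0.07 to 0.91, adjusted p = 0.135). Eng had a log2 change of 0.50 with LQ-40 (limma adjusted p = 0.0613) and 0.26 with SQ-3 (adjusted p = 0.328). Egfl7 had -0.35 with LQ-40 (95% interval -0.63 to -0.07, limma adjusted p = 0.0815) and -0.15 with SQ-3 (adjusted p = 0.472). LQ-40 1, which lay apart on the first principal component, bears on these counts. Without it, Eng passed as higher (limma adjusted p = 0.0242), and Egfl7 (adjusted p = 0.0383) and Esam (adjusted p = 0.0499) passed as lower, making 4 of 10 with Vwf. Without Sham 3, Eng passed (0.0457), making 2 of 10. Shares of all tested genes called in these fits are not given here, so the counts cannot be set against them.

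Ordered by group mean, Vwf ran from LQ-40 (19.8 ± 7.43 scaled FPKM, SD, n = 3) through Model (15.7 ± 0.853) and SQ-3 (15.3 ± 3.86) to Sham (6.44 ± 0.287). The first 3 of these did not differ beyond their spread, and each stood above Sham. Cldn5 ran from Model (42.3 ± 5.56) through SQ-3 (31.3 ± 4.30) and LQ-40 (27.4 ± 6.64) to Sham (22.1 ± 3.94), and Model and Sham were the only called pair. Eng ran from Model (94.0 ± 2.12) through LQ-40 (92.6 ± 11.2) and SQ-3 (78.4 ± 11.6) to Sham (65.6 ± 13.1). Egfl7 ran upward in another order, from Model (22.7 ± 1.95) through LQ-40 (24.8 ± 2.77) and SQ-3 (28.6 ± 1.30) to Sham (32.0 ± 4.92). For both of these the called pair was again Model and Sham. Neighbours in each order that were not called cannot be ranked beyond their spread.

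Other endothelial genes from lists place these 10 in context. The lists were chosen with earlier results of these data known, so their counts are a description and no excess can be read from them. The lists hold 101 tested genes beside the 10, of which 33 rose and 13 fell between Model and Sham hearts, with a median log2 change of 0.12. Over all tested genes, 20.9% rose and 18% fell, and the counts of each list that follow stand against those shares. Among 26 other pan-endothelial genes, 4 rose and 2 fell, and the median log2 change was -0.10. Without Sham 1 these counts were 2 and 1, and without Model 1 they were 3 and 0. Plvap, which forms the diaphragms of fenestrated endothelium, averaged 55.7 ± 7.51 scaled FPKM in Model hearts and 8.14 ± 0.300 in Sham hearts, 6.17-fold higher (limma adjusted p = 0.000705). Calcrl, the adrenomedullin receptor, was 1.54-fold higher (adjusted p = 0.00827). Cd93, a transmembrane receptor of angiogenic endothelium, was 1.48-fold higher (adjusted p = 0.0214). Adgrf5, an adhesion receptor, was 1.64-fold lower (adjusted p = 0.0148), and the VEGF receptor Flt1 was 1.32-fold lower (adjusted p = 0.0366). Podxl averaged 53.0 in Model hearts and 62.5 in Sham hearts and was not called.

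Capillary genes fell where they changed. Of 9 tested, 5 fell, none rose, and the median log2 change was -1.05. Without Sham 1, 3 fell. Car4, a carbonic anhydrase anchored to the capillary surface, averaged 4.28 ± 1.16 scaled FPKM in Model hearts and 13.7 ± 1.70 in Sham hearts, 2.82-fold lower (limma adjusted p = 0.00562). Fabp4, a fatty acid carrier, averaged 71.6 ± 18.7 in Model hearts and 157 ± 33.1 in Sham hearts (adjusted p = 0.00797). Cd36, the fatty acid transporter that cardiomyocytes also express, averaged 275 ± 52.3 in Model hearts and 567 ± 77.3 in Sham hearts (adjusted p = 0.0107). Gpihbp1, which holds lipoprotein lipase on the capillary wall, averaged 20.8 in Model hearts and 39.2 in Sham hearts but was not called (adjusted p = 0.0612). Aqp1, a water channel, averaged 127 in Model hearts and 164 in Sham hearts and was not called (adjusted p = 0.411).

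Lists for larger vessels, the endocardium and lymphatics were counted next, against the same 20.9% higher and 18% lower over all genes. In the list of venous, endocardial and inflamed endothelium, 5 of 13 rose and none fell, with a median log2 change of 0.76, and Vwf and Plvap are among the 5. Without Model 1, 3 rose. Nfatc1, the endocardial transcription factor, was 1.65-fold higher (limma adjusted p = 0.00308). Icam1, the leukocyte adhesion molecule, was 1.89-fold higher (adjusted p = 0.012). Of 11 arterial genes, 3 rose and none fell, a share near that of all genes, and without Sham 1 these counts were 2 and 1. Fbln5, an elastic fibre protein that fibroblasts and smooth muscle also make, was 4.38-fold higher (adjusted p = 0.00141). Unc5b, a netrin receptor, was 2.21-fold higher (adjusted p = 0.00723), and the arterial connexin gene Gja4 was 1.40-fold higher (adjusted p = 0.0167). Of 6 tested lymphatic genes, 4 rose and 1 fell. Mmrn1, multimerin-1, was 2.21-fold higher (adjusted p = 0.000234), and Prox1, the lymphatic master regulator that cardiomyocytes also express, was 1.43-fold lower (adjusted p = 0.0265).

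Most of the genes listed for the granule that stores von Willebrand factor rose with Vwf. Of 12 in the Weibel-Palade body list, which includes Vwf, 9 rose and none fell, against 20.9% of all tested genes higher and 18% lower. The median log2 change was 0.88. Without Model 1, 7 rose. Plat, tissue plasminogen activator, averaged 12.9 ± 0.895 scaled FPKM in Model hearts and 3.81 ± 0.379 in Sham hearts (limma adjusted p = 0.000313). Edn1, the vasoconstrictor endothelin-1, was 2.47-fold higher (adjusted p = 0.00202), and Angpt2, a destabilising ligand of Tek, was 1.94-fold higher (adjusted p = 0.003). Igfbp7, which fibroblasts also secrete, averaged 992 ± 163 in Model hearts and 254 ± 41.4 in Sham hearts (adjusted p = 0.00254). Stxbp5 and Rab27a, which act in granule release, averaged 2.03 and 1.30 in Model hearts and 1.49 and 0.901 in Sham hearts and were not called. Selp, also in the list, was not called either (log2 change 0.76, limma adjusted p = 0.167). Fibroblast and leukocyte marker sums moved with these lists, and their part was not tested.

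Factors of the endothelial to mesenchymal transition are widely expressed in fibroblasts too. Of 8 tested, 4 rose and 1 fell. By limma-voom 3 rose, and over the 20 alternatives 1 to 6 rose, with 1 fallen in each. Snai1 averaged 7.71 scaled FPKM in Model hearts and 1.35 in Sham hearts (log2 change 1.91, limma adjusted p = 0.00224). Twist1 averaged 7.29 in Model hearts and 1.63 in Sham hearts (log2 change 1.66, adjusted p = 0.00127). The cadherin Cdh2, abundant in cardiomyocytes, was 1.54-fold lower (adjusted p = 0.00694). Among 13 tested ETS and partner transcription factors, 5 rose and 2 fell. Foxc2 averaged 4.40 ± 0.271 scaled FPKM in Model hearts and 0.824 ± 0.207 in Sham hearts (adjusted p = 0.00104), and Gata2 was 1.48-fold lower (adjusted p = 0.00453). Sox18 averaged 37.8 in Model hearts and 38.3 in Sham hearts and was not called. In the junction list of 16, which includes Cldn5, Cdh5 and Pecam1, 3 rose and 2 fell. Ctnnb1, beta-catenin, was 1.25-fold higher (adjusted p = 0.04) and Tjp1, the scaffold ZO-1, was 1.24-fold lower (adjusted p = 0.0445). This list's counts were unstable. By quantile normalization 2 rose and none fell, 1 rose and none fell without either Sham 2 or Model 3, and each other Model or Sham library left out gave 2 or 3 calls in all.

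**Figure D4:**
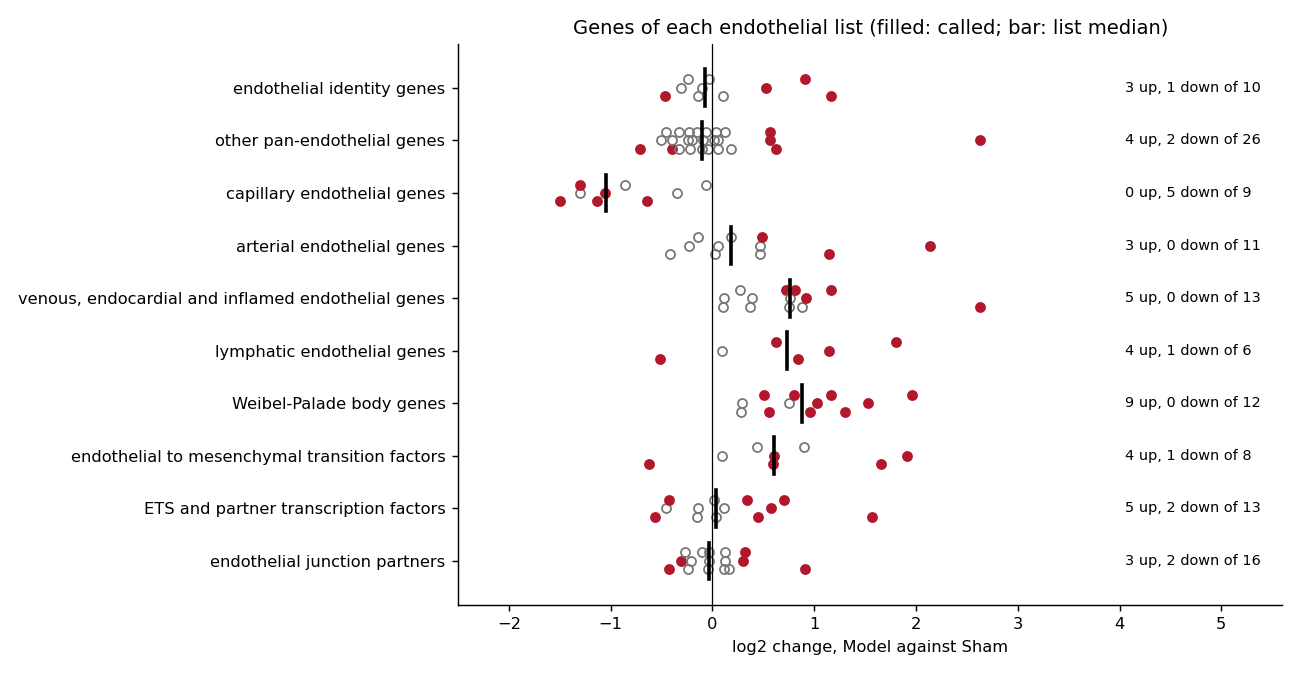
Log2 change between Model and Sham hearts of the tested genes in each endothelial list, on the log2(scaled FPKM + 1) scale; each point is a gene (a gene in several lists appears in each), filled points passed an adjusted p of 0.05, and bars are list medians. Capillary genes have a median of -1.05 and Weibel-Palade body genes a median of 0.88, while the 10 endothelial identity genes have a median of -0.07.

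Against Model hearts few genes of the lists were called with either compound, as over all genes (0.669% and 0.346%). Of the 101 other endothelial genes, 1 fell and none rose with LQ-40 (limma, 16 at an unadjusted p under 0.05, where all tested genes had 12.1%, and 1 fell by limma-voom). None passed with SQ-3 (limma, 0 of 101, 13 at an unadjusted p under 0.05, where all tested genes had 14.2%, and 0 by limma-voom). The capillary list had a median log2 change of 0.29 with each compound, with 0 of 9 at an unadjusted p under 0.05. The lymphatic list had a median of -0.20 with LQ-40 and -0.31 with SQ-3, with 3 and 4 of its 6 tested genes at an unadjusted p under 0.05. These counts take both directions. With SQ-3, Prox1 was higher (8.55 scaled FPKM against 5.69 in Model hearts), while Flt4 (7.85 against 10.3) and Mmrn1 (7.80 against 10.1) were lower. The single call was Plat, which averaged 6.59 ± 2.09 scaled FPKM in LQ-40 hearts and 12.9 ± 0.895 in Model hearts (log2 change -0.90, adjusted p = 0.0443). Against Sham hearts, 22 of the 101 rose and 1 fell with LQ-40 (20 and 3 by limma-voom). Over all tested genes, 15.8% were called in that comparison and 9.83% were called higher. With SQ-3, 13 rose and 1 fell (9 and 2 by limma-voom), where 6.68% of all tested genes were called and 4.86% called higher. Plvap averaged 46.7 ± 23.4 in LQ-40 hearts and 36.5 ± 9.58 in SQ-3 hearts, against 8.14 ± 0.300 in Sham hearts (limma adjusted p = 0.00571 and 0.0105). No capillary gene was called against Sham with either compound by limma (0 of 9, against 15.8% and 6.68% of all tested genes). In each, 5 of 9 had an unadjusted limma p under 0.05. The share over all genes is not given here, but such p-values were common. Of the 13000 genes tested, an unadjusted limma p of 0.0204 ranked 3259 with LQ-40, and 0.0274 ranked 2646 with SQ-3. Median log2 changes were -0.71 with LQ-40 and -0.57 with SQ-3.

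Platelets and megakaryocytes also make von Willebrand factor, so their markers are given beside Vwf. The 9 markers summed to 18.2 to 35.5 scaled FPKM in Model hearts and 20.0 to 21.3 in Sham hearts, and Gp1bb was at 0 in every library. Itga2b, the platelet integrin chain, had 13 to 72 reads a library and Pf4 had 116 to 322, against 1277 to 6949 for Vwf. Reads are not adjusted for gene length, and Vwf is long (16064 bases). In scaled FPKM the highest library had 29.9 for Pf4, 26.9 for Vwf and 0.821 for Itga2b. Of the 3 markers that could be tested, 1 rose: Itgb3, which macrophages and vessel cells also express, was 2.67-fold higher in Model hearts (limma adjusted p = 0.000577). Pf4 (log2 change -0.05, adjusted p = 0.928) and Ppbp (log2 change -0.21, adjusted p = 0.700), both platelet chemokines, were not called. Endocardial cells are also known to express Vwf, and their 4 markers, Plvap among them, summed to 86.7 to 94.2 in Model hearts and 23.5 to 38.1 in Sham hearts. Of the 4, Plvap, which makes up most of that sum in Model hearts, and Nfatc1 rose, while Npr3 (log2 change 0.37, limma adjusted p = 0.393) and Cytl1 (log2 change 0.88, adjusted p = 0.133) were not called. The part of these cells in the rise of Vwf was not tested.

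The likeness of other genes' patterns was measured by Pearson's correlation over the 12 libraries, which share the 4 groups, and is given as a description. Closest to the mean of the 9 genes other than Vwf were Eif3k (0.827), Retnlg (0.822), Podxl (0.804) and Icam2 (0.774), of which Podxl and Icam2 are endothelial surface genes. Within the 10, Pecam1 lay nearest that mean, which includes it (0.886), while Eng (-0.04) and Vwf (-0.19) did not follow it. Closest to Vwf itself were Ptk2b (0.971), Vsir (0.963), Olfml2a (0.957), Csf1r (0.956) and Tpst1 (0.956). Csf1r is the receptor of macrophage colony-stimulating factor. Of the 10, Eng was most like Vwf (0.820) and Egfl7 least like it (-0.68).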

How the data were processed

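Per the labels' protocols, poly-T beads captured messenger RNA from mouse hearts and rat cells, and either a non-stranded or a strand-specific library followed. Tools named in the submitters' processing notes are featureCounts 1.5.0-p3, HISAT2 2.0.5 and fastp, and the builds are mm10 (mouse) and Rnor_6.0 (rat). Overlapping genes are uncertain, since annotation release and strand setting were not given in the sources used here. The authors deposited FPKM values with gene lengths and coordinates.

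FPKM times gene length gave whole reads for 100% of values in each library (tolerance 0.02 of a read), so reads were recovered. Depth was 13085370 to 16698987 reads in mouse libraries, and read numbers and floors cover counting error only. Each mouse library was scaled by its median ratio to the geometric mean over 10422 genes that reached 1 FPKM throughout. The test covered the 13000 genes reaching 1 FPKM in 3 or more of 12 libraries, as log2(scaled FPKM + 1), a scale that understates changes of low genes. Tests used limma 3.58.1 in R 4.3.3 (trend, all 12 libraries in a single fit, no covariates, 10.9 degrees of freedom), two-sided, with Benjamini-Hochberg adjustment over all genes tested and a threshold of 0.05. "Rose", "fell" and "called" refer to it. The fit was also run on simulated data in which few genes changed, unlike these data. That run checks the code and says nothing about the calls made here.

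Groups were taken from the sample labels. The 10 genes and the gene lists were chosen with earlier results of these data known. Named beside the 10 were, from each list, up to 4 called genes per direction by smallest p, up to 2 uncalled genes of highest level, and the genes closest in pattern. Not every eligible gene is printed, and the uncalled Selp was named besides. Promoter bases and the microRNA come from RefSeq (GRCm38.p6), with annotated exons removed from promoters. Alternatives were leaving out each library, a replicate block, limma-voom on recovered reads, a fit of only the 2 groups compared, quantile normalization, unscaled FPKM as deposited, a pseudocount of 0.1, and testing either every gene or those averaging at least 5 FPKM. Ccl21a, whose name is not unique in the table, was not used.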

Additional observations from a re-analysis of the deposited data

Results flagged for a closer look

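Endothelial identity genes had reads in the 2 rat libraries, which belong to no mouse comparison and are labelled as heart muscle cells, heart fibroblasts and macrophages from bone marrow, a mixture with no endothelial cells by its label. With 1 library a group there is no replicate check and no test. Values are FPKM as deposited, and each listed gene was above the floor of 3 reads in both libraries. Eng, which fibroblasts and macrophages also express, had 65.7 FPKM in the 3D co-culture and 64.6 in the 2D cells. Egfl7 had 12.3 in the 3D co-culture and 12.6 in the 2D cells. Esam had 2.66 and 1.14, Cdh5 2.48 and 2.18, and Tie1 2.26 and 2.13, in the 3D co-culture and the 2D cells. Vwf had 0.966 and 1.30, Erg 0.462 and 0.649, and Emcn 0.245 and 0.427, with the 3D co-culture first in each pair. Emcn rested on 4 and 8 reads. Cldn5 had 0 reads in both, and no rat row was named Pecam1.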

How the results depend on the processing

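Of 1200 gene values under the 20 alternatives, 1176 kept their side of the threshold, 15 lost a call, 9 gained one and 0 reversed. Among the 1176, 40 uncalled values changed sign. Calls changed for 8 of the 60 gene comparisons. The count of called genes between Model and Sham hearts was 4, and 2 to 5 with a library left out, lowest at 2 without Model 3. It was 3 higher and 2 lower with FPKM as deposited, with limma-voom and with a mean of at least 5 FPKM. For LQ-40 against Sham hearts the count of 1 became 0 when only the 2 groups were fitted, and was 1 to 4 with a library left out. For SQ-3 against Sham hearts the count of 1 became 0 without a filter, and was 0 to 1 with a library left out. The cause of these changes was not tested, and shares of all tested genes called under the alternatives are not given here. For each compound against Model, and for LQ-40 against SQ-3, the count was 0 under all 20 alternatives.

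Replicate numbers in the titles did not pair the samples: among 18 same-numbered pairs the correlation of deviations was -0.268 to 0.219, with 3 pairs over 0.1, and among 36 other pairs it was -0.394 to 0.389. With the replicate block the count was 4 for Model against Sham, 1 for each compound against Sham and 0 elsewhere. With 3 libraries a group the intervals are wide, and where a printed interval holds 0 the direction of the difference is not known.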
